A study of Mus musculus with 6 samples.

Results

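The genes described here encode ubiquitin ligases and ligase adaptors that have been linked to T cell anergy, the unresponsive state that follows stimulation without costimulation. They were chosen by gene symbol from a list of 10 names, Cbl, Cblb, Itch, Nedd4, Nedd4l, Ndfip1, Ndfip2, Rnf128, Peli1 and Traf6. Of these, 9 were among the 11162 genes with values, and all 9 passed the filter on low values and were among the 9351 genes tested. Rnf128, which encodes the ligase GRAIL, was not analysed here.

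RNA had been sequenced from naive CD8 T cells of mouse spleen carrying Nur77-GFP, the transgene Tg(Nr4a1-EGFP)GY139Gsat, which places green fluorescent protein under the control of Nr4a1 regulatory sequence. Nr4a1 encodes Nur77, whose transcription follows quickly on T cell receptor signals, so that reporter brightness has been used as a measure of recent signalling. Both populations had been sorted as CD8+, CD44lo, CD62Lhi and Qa2hi, with OT-I, a transgenic receptor for an ovalbumin peptide, given among the markers of the sort. The comparison was between 3 libraries of Nur77-GFPhi cells (GFP-hi) and 3 libraries of Nur77-GFPlo cells (GFP-lo), and addressed how the transcriptome differs with reporter brightness. The labels do not say whether libraries of a population came from separate mice, so the p-values measure the spread between these libraries, which may be technical.

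Ubiquitin ligases mark proteins with ubiquitin, which can send a receptor or kinase for degradation or change its activity. Cbl and Cbl-b are RING ligases that act on kinases and adaptors close to the T cell receptor, and Cbl-b sets the need for CD28 costimulation. Itch, Nedd4 and Nedd4-like are HECT ligases of one family, kept inactive until adaptors such as Ndfip1 and Ndfip2 bind and open them. In T cells, loss of Cbl-b, Itch, Ndfip1, GRAIL or Peli1 is known to lower the threshold of activation or to break tolerance, and Traf6 deletion in T cells causes inflammatory disease.

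Values are RPKM as deposited, reads per kilobase of gene scaled by the size of the library. Depth was recovered from the spacing of low values, which come in whole reads, and 1 RPKM stood for 26.17 to 35.94 reads per kilobase of gene, depending on the library. The lowest value of a member was 2.12 RPKM for Nedd4l in GFP-hi replicate 2, and over the libraries Nedd4l rested on 62.5 to 88.6 reads per kilobase. Peli1 rested on 1711 to 2464 reads per kilobase. Reads are not molecules, so depth covers counting error only. Of the CD8 T cell markers, 5 of 6 had values, with a summed level of 1428 to 1531 RPKM in GFP-hi against 1398 to 1454 RPKM in GFP-lo, led by Cd8b1. Of 6 B cell markers 2 had values, led by Cd79b (12.0, 14.1 and 13.3 RPKM in GFP-hi against 11.1, 10.6 and 10.6 RPKM in GFP-lo), and Ms4a1 was at most 0.597 RPKM. Of 6 erythroid markers 2 had values, summing to 4.36 to 5.74 RPKM in GFP-hi against 2.38 to 3.55 RPKM in GFP-lo, and Car2 passed as higher (log2 fold change 0.73, limma adjusted p = 0.0036), while Hba-a1 was at most 1.94 RPKM. Neither the reporter transcript nor Nr4a1 separated the populations: GFP had 214, 262 and 215 RPKM in GFP-hi against 216, 215 and 191 RPKM in GFP-lo libraries (limma, adjusted p = 0.42), and Nr4a1 had 61.5 ± 27.3 and 60.6 ± 25.6 RPKM (SD, n = 3 each, adjusted p = 0.98), so that transcripts give no check of the sort. GFP-hi replicate 2 and GFP-lo replicate 2 stood apart by the heat shock gene Hspa1a, with 1100 and 1234 RPKM against 152 to 235 RPKM in the other 4 libraries. Of 14 cell cycle genes tested 10 passed the test as higher in GFP-hi (2.46% of all genes tested did) and all 14 had positive fold changes, and the summed level of that list was 187 to 211 RPKM in GFP-hi against 134 to 144 RPKM in GFP-lo. Several of these genes averaged under 1 RPKM in GFP-lo and passed the filter on low values only through GFP-hi. The share of calls is therefore partly set by that filter, while the summed level takes in genes below it. Whether the differences between libraries and populations given here bear on the ligase genes was not tested beyond the values given with the results.

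None of the 9 members passed the test (limma on log2(RPKM + 1), two-sided, Benjamini-Hochberg adjusted p under 0.05). Among all genes tested the share that passed was 3.95%, made up of 2.46% higher and 1.49% lower. An unadjusted p under 0.05 was reached by 2 members, Ndfip1 and Nedd4, against 20.2% of all genes. For 3 members, Ndfip1, Nedd4 and Peli1, the libraries of the populations did not overlap, which is 33.3% of the members against 26.9% of all genes tested. Fold changes, given as log2 of GFP-hi over GFP-lo, were positive for 4 members and negative for 5, with a median of -0.01 beside 0.02 over all genes tested. The largest in size was 0.22, and no gene with a fold change of that size or less passed.

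**Figure D1:**
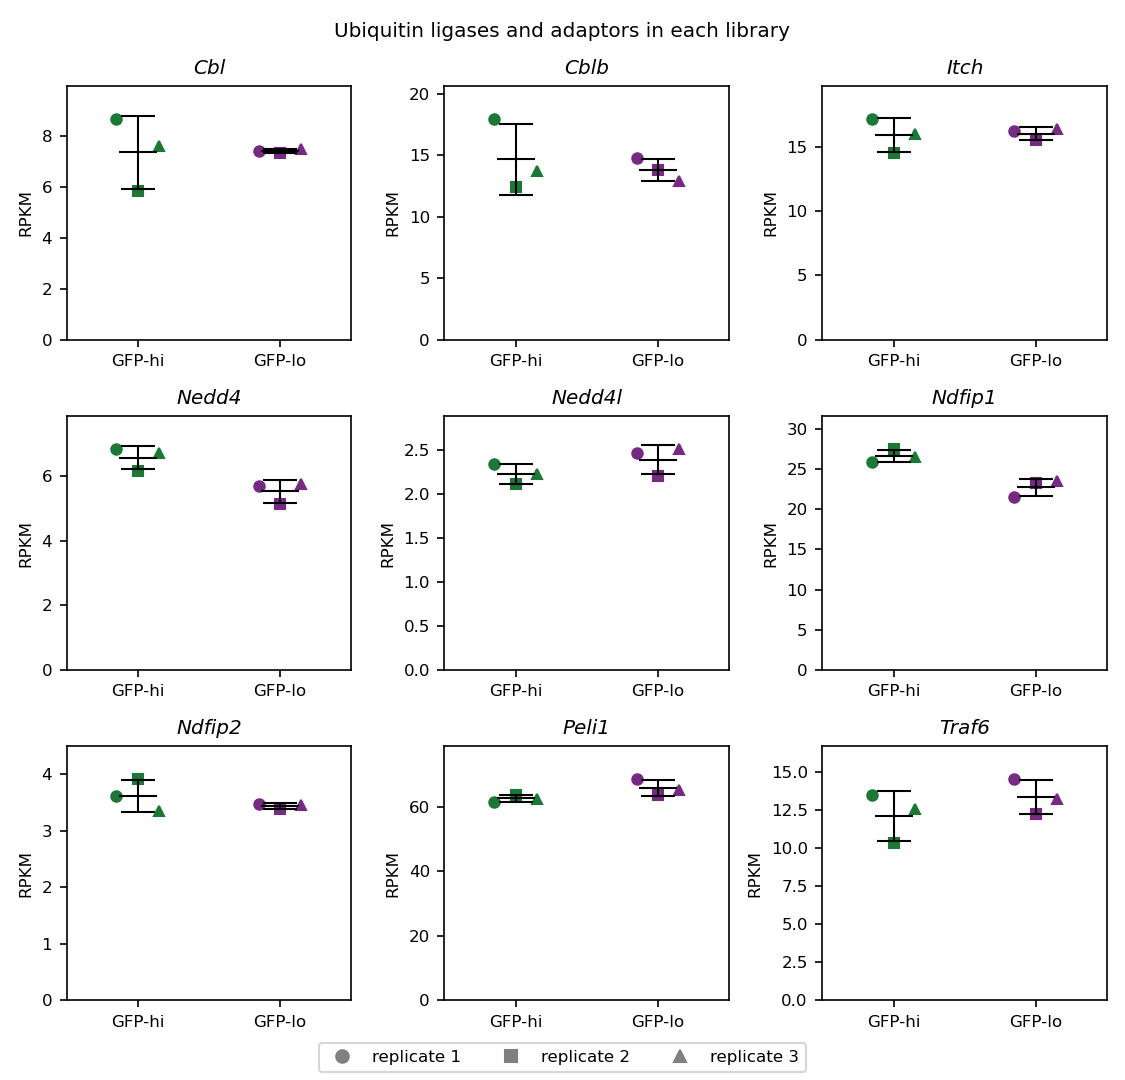
RPKM of each member in the 3 GFP-hi (green) and 3 GFP-lo (purple) libraries, each panel with its own axis from 0. Points are libraries, with a marker shape for each replicate number, which follows the order of the records. The labels do not say whether libraries of the same number are paired. Long bars are means and whiskers the SD. Ndfip1 and Nedd4 have all GFP-hi libraries above all GFP-lo libraries, and Cbl, Cblb, Itch and Traf6 are lowest in GFP-hi replicate 2.

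By level per length, the order was Peli1, Ndfip1, Itch, Cblb, Traf6, Cbl, Nedd4, Ndfip2 and Nedd4l. Peli1, with 61.7 to 68.6 RPKM over the 6 libraries, lay above 96.1% of the listed genes, and Nedd4l, with 2.12 to 2.51 RPKM, above 26.7%. The ranges of Itch and Cblb, of Cblb and Traf6, and of Cbl and Nedd4 overlapped, and those of the remaining neighbours in the order did not. The median of the listed genes was 6.61 RPKM. Of the ligases proper, the transcripts of Peli1, Itch, Cblb, Traf6 and Cbl were therefore above the middle of the table in mean level, and those of Nedd4 and Nedd4l were below it.

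Start-site sequence from RefSeq (GRCm38.p6, the same assembly as mm10) was available for Cbl, Cblb, Nedd4, Ndfip2, Peli1 and Traf6. The 250 bases before the start are shown for Nedd4 and Traf6, the members with the largest positive and the most negative fold change among these, whose windows touch no exon of GENCODE M21. Nedd4 lies at chr9:72662331-72749851 and its window at chr9:72662081-72662330, plus strand. Traf6 lies at chr2:101678420-101701668 and its window at chr2:101678170-101678419, plus strand.
Nedd4: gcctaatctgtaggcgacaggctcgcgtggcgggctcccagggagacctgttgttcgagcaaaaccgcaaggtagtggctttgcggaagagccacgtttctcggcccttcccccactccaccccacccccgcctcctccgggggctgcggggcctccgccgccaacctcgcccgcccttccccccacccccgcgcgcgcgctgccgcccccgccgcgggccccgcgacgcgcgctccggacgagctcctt
Traf6: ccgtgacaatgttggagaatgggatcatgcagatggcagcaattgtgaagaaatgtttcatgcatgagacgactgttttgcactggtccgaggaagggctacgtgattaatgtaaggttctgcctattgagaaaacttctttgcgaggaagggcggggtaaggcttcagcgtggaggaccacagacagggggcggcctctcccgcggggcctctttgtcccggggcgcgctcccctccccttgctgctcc

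The windows were searched on both strands for AAAGGTCA, the element that Nr4a proteins bind, for GCGTGGGCG, a site of Egr proteins, for TGANTCA, an AP-1 site, and for GGAAA, the core that NFAT proteins bind. None of the 4 was in either printed window, so that no letter is in capitals. In all windows of this length these motifs were present in 1.34%, 0.54%, 6.75% and 55.57%, and the windows numbered 32851. Neither AAAGGTCA nor GCGTGGGCG was found in a window of the 6 members. NFAT with little AP-1 is known to drive ligase genes in anergic T cells, and the GGAAA core (TTTCC where it lies on the other strand) occurred 3 times in the window of Cbl and 2 times each in those of Cblb, Ndfip2 and a second Nedd4 start, the last of which also held a TGANTCA match. Those of Cbl and Cblb, the family described first, are shown. Their windows are counted from the RefSeq start and each overlaps 1 GENCODE exon, so that both Cblb sites and the Cbl sites at -129 and -112 lie inside the gene spans given here. Each is printed with 10 bases on each side, the core in capitals and the position counted from the start site, at chr9:44234264-44234288, chr9:44234161-44234185 and chr9:44234144-44234168 (minus strand) and at chr16:52031308-52031332 and chr16:52031348-52031372 (plus strand). A match to so short and common a motif is a description of the letters and not a binding site.
Cbl, position -232: accccacctcTTTCCttccattcct
Cbl, position -129: cagtgggcgcGGAAActtggtcgag
Cbl, position -112: tggtcgaggcTTTCCgggagccgcg
Cblb, position -231: tttcagttccTTTCCtcgttccact
Cblb, position -191: cctaggtccaTTTCCcaacgagttc

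The Cbl family ligases did not differ detectably. Cbl (Entrez 12402, chr9:44142976-44234259) had 8.66, 5.83 and 7.58 RPKM in the GFP-hi and 7.41, 7.33 and 7.46 RPKM in the GFP-lo libraries. The GFP-lo libraries lay between the extremes of GFP-hi, whose replicate 1 was the highest and replicate 2 the lowest of the 6. Cbl averaged 7.35 ± 1.43 RPKM in GFP-hi libraries and 7.40 ± 0.0651 RPKM in GFP-lo libraries (SD, n = 3 each). On the log2 scale the fold change was -0.02, with a 95% interval from -0.29 to 0.24 (limma, adjusted p = 0.94). On the scale of RPKM + 1 this interval spans a ratio of 0.818 to 1.18. Cblb (Entrez 208650, chr16:52031230-52208047), the paralog with the stronger hold on CD28-independent activation, had 17.96, 12.4 and 13.7 RPKM in GFP-hi against 14.8, 13.8 and 12.9 RPKM in GFP-lo. Again GFP-hi replicate 1 was the highest and GFP-hi replicate 2 the lowest. The log2 fold change of Cblb was 0.07, with an interval from -0.21 to 0.35 (limma, adjusted p = 0.81), and it was -0.08 without GFP-hi replicate 1. The level of Cbl over that of Cblb within a library was 0.501 ± 0.0447 in GFP-hi and 0.537 ± 0.0381 in GFP-lo (SD, n = 3 each, exact permutation test, unadjusted p = 0.3).

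The within-group spread of both genes was wide. The SD within groups on the log2(RPKM + 1) scale was 0.180 for Cbl and 0.193 for Cblb, at least as large as that of 90.5% and 92.2% of genes tested, whose median was 0.0897. For Cbl the spread lay mostly within GFP-hi. GFP-hi replicate 2, where Cbl was lowest, was also a library with high Hspa1a. GFP-lo replicate 2, the other such library, had 7.33 RPKM of Cbl, the lowest of the GFP-lo libraries by a small margin. Among the 4 libraries with lower Hspa1a the log2 fold change of Cbl was 0.11 (limma, adjusted p = 0.56) and that of Cblb 0.17 (adjusted p = 0.57), and neither passed. The direction of Cbl turned with a single library, its log2 fold change being 0.12 without GFP-hi replicate 2 (adjusted p = 0.40).

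Of the HECT ligases, Nedd4 had the largest estimated difference, and none passed. Nedd4 (Entrez 17999), which ubiquitinates membrane proteins and is known to act on Cbl-b in T cells, had 6.83, 6.17 and 6.73 RPKM in GFP-hi against 5.71, 5.13 and 5.74 RPKM in GFP-lo. All GFP-hi libraries lay above all GFP-lo libraries. The difference was 0.22 ± 0.067 (SE) on the log2 scale, its interval running from 0.06 to 0.37 (limma, unadjusted p = 0.0126, adjusted p = 0.13), so that it did not pass. Nedd4l (Entrez 83814), its closest relative, which is known for the turnover of sodium channels and of Smad proteins, had 2.34, 2.12 and 2.23 RPKM in GFP-hi against 2.47, 2.20 and 2.51 RPKM in GFP-lo. The groups overlapped, and the log2 fold change was -0.07 (interval from -0.23 to 0.09, limma, adjusted p = 0.64). Itch (Entrez 16396, chr2:155133481-155226855), known for the degradation of JunB and phospholipase C gamma in anergic T cells, had 17.2, 14.6 and 16.0 RPKM in GFP-hi against 16.3, 15.5 and 16.4 RPKM in GFP-lo. It was the member whose estimate lay closest to 0, with a log2 fold change of -0.01 and an interval from -0.17 to 0.14 (limma, adjusted p = 0.94).

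The level of Nedd4 over that of Nedd4l was 2.92, 2.91 and 3.02 in GFP-hi and 2.32, 2.33 and 2.29 in GFP-lo. This ratio, which no scaling of a library can move, was looked at because the fold changes of the pair, neither of which passed, had opposite signs. It is therefore given as a description. An exact permutation test gave an unadjusted p of 0.1, the smallest possible with 3 against 3 libraries, and so could not decide.

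The adaptors were led by Ndfip1. Ndfip1 (Entrez 65113), a membrane protein of endosomes that recruits and activates Itch and Nedd4, had 25.9, 27.5 and 26.5 RPKM in GFP-hi against 21.6, 23.2 and 23.5 RPKM in GFP-lo. Every GFP-hi library lay above every GFP-lo library. Ndfip1 averaged 26.6 ± 0.768 RPKM in GFP-hi libraries and 22.8 ± 1.05 RPKM in GFP-lo libraries (SD, n = 3 each). On the log2 scale the difference was 0.22 ± 0.056 (SE), with an interval from 0.09 to 0.35 (limma, unadjusted p = 0.00437, adjusted p = 0.075). Ndfip1 had the lowest p of the members and still missed the threshold. It passed with array quality weights (adjusted p = 0.018), as Nedd4 did (adjusted p = 0.016), and with the heat shock list as a covariate, a fit chosen after the data had been seen (adjusted p = 0.037). More genes of all kinds passed in these fits, 1282 and 859 of the 9351 tested against 369 without weights or covariate. Ndfip1 did not pass in any of the 6 fits without 1 library, where its log2 fold change was 0.18 to 0.24 and its adjusted p 0.12 to 0.22. Ndfip2 (Entrez 76273, chr14:105258591-105309298), the related adaptor, had 3.61, 3.91 and 3.34 RPKM in GFP-hi against 3.48, 3.37 and 3.45 RPKM in GFP-lo. Its libraries overlapped, with a log2 fold change of 0.06 (interval from -0.10 to 0.21, limma, adjusted p = 0.70). Ndfip1 over Ndfip2 was 7.39 ± 0.487 in GFP-hi and 6.63 ± 0.374 in GFP-lo (SD, n = 3 each). An exact permutation test gave an unadjusted p of 0.1, the smallest it can give here, and so could not decide.

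**Figure D2:**
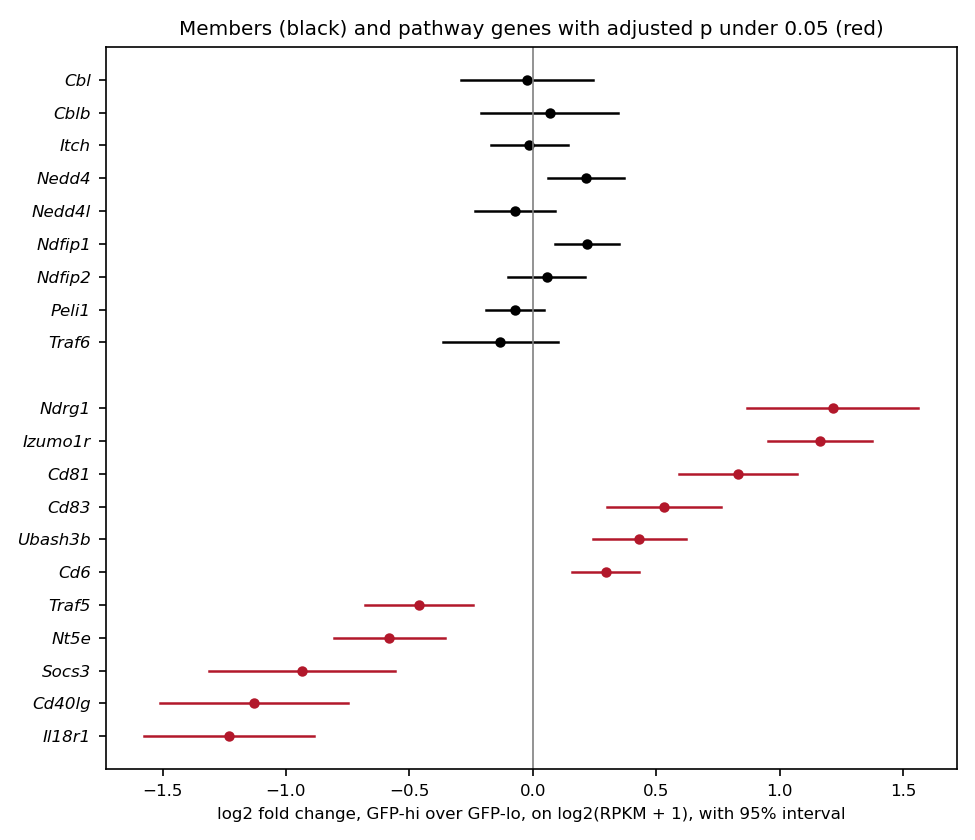
Log2 fold change of GFP-hi over GFP-lo on log2(RPKM + 1), with its 95% interval (lines), for the 9 members in black and for 11 of the 12 pathway genes with an adjusted p under 0.05 in red. The members lie between -0.13 and 0.22, and the pathway genes between -1.23 and 1.22.

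The remaining RING ligases were Peli1 and Traf6. Peli1 (Entrez 67245, chr11:21091283-21150327), which limits T cell activation by marking c-Rel for degradation, had 61.7, 63.7 and 62.6 RPKM in GFP-hi against 68.6, 63.8 and 65.4 RPKM in GFP-lo. The GFP-hi libraries were all lower, but the nearest values of the groups were 63.7 and 63.8 RPKM. The log2 fold change was -0.07 (interval from -0.19 to 0.05, limma, adjusted p = 0.49), and its SD within groups, 0.0400, was the smallest of the members. Traf6 (Entrez 22034), a ligase downstream of receptors of the interleukin 1 and Toll families that also restrains T cell activation, had 13.5, 10.3 and 12.6 RPKM in GFP-hi against 14.5, 12.2 and 13.2 RPKM in GFP-lo. The groups overlapped, and replicate 2 was the lowest library of each population. Its log2 fold change was -0.13 (interval from -0.36 to 0.10, limma, adjusted p = 0.53), and -0.03 without GFP-hi replicate 2.

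Ndfip1 and Nedd4 were above their mean in each GFP-hi library and below it in each GFP-lo library, whereas Cbl, Cblb, Itch and Ndfip2 had both their highest and their lowest value within GFP-hi. In GFP-hi replicate 2, 5 members had their lowest value, Cbl, Cblb, Itch, Nedd4l and Traf6, while Ndfip1 and Ndfip2 had their highest. In GFP-hi replicate 1, Cbl, Cblb, Itch and Nedd4 had their highest value and Peli1 its lowest. Over the 6 libraries, Pearson's r with Cbl on the log2(RPKM + 1) scale was 0.95 for Itch, 0.81 for Cblb and 0.80 for Traf6, and -0.59 for Ndfip2. With Hspa1a it was -0.71, and Spearman's rho was -0.89. These correlations describe 6 libraries, which differ in depth, and each gene pair takes both of its values from the same library. Among the 5 genes tested whose pattern was most like that of Cbl were Nfatc3 (r = 0.99), Med12 (0.99), Tnfrsf14 (0.99) and Wnk1 (0.98), over 6 libraries. Nfatc3, for example, had 66.4, 54.9 and 62.5 RPKM in GFP-hi against 60.3, 60.6 and 61.3 RPKM in GFP-lo, with the same library highest and the same lowest as for Cbl.

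**Figure D3:**
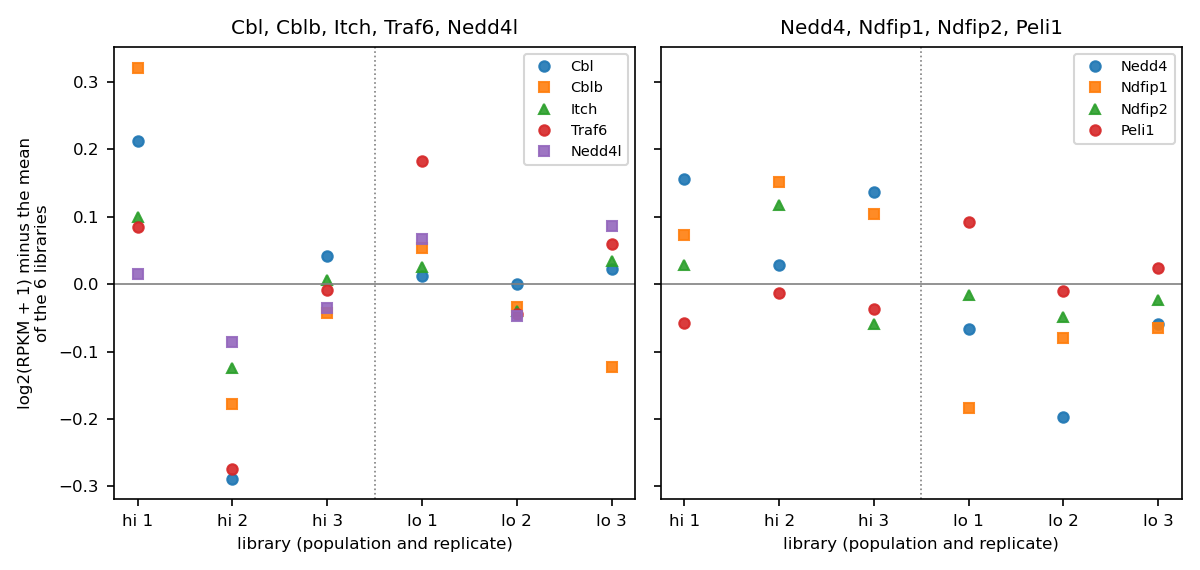
Log2(RPKM + 1) of each member minus its mean over the 6 libraries, for the members lowest in GFP-hi replicate 2 (left) and the rest (right). The dotted line divides the GFP-hi libraries from the GFP-lo libraries. Cbl and Traf6 deviate by -0.29 and -0.27 in GFP-hi replicate 2, and Ndfip1 is above its mean in each GFP-hi library.

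The pathway around the members was described with 7 lists, 138 genes tested in all when each is counted once. At an adjusted p under 0.05, 7 of these rose and 5 fell, 8.70% against 3.95% of all genes tested, with a median log2 fold change of -0.02. Nothing particular to the lists is read from this share, since they were drawn up with earlier results of these data known. In bulk RNA, fewer cells of a type and less RNA per cell cannot be told apart. Among the 4 libraries with lower Hspa1a, 3 of the 12 passed, Socs3, Cd40lg and Izumo1r, and 0 of the 9 members. Of the 138 list genes 41 had populations whose libraries did not overlap, and of all genes tested 26.9%. All 12 called genes were among the 41, which a call with 3 against 3 libraries makes likely and which adds no support. When each library was left out in turn, Cd40lg, Cd81, Il18r1, Izumo1r and Ndrg1 passed every time, and the other 7 did not. For genes with a population under 1 RPKM the pseudocount sets the size of the fold change: with 0.1 in place of 1 it was 1.40 for Cd81, 0.90 for Cd83, 1.73 for Izumo1r, -1.84 for Il18r1 and -1.02 for Nt5e, and all of these passed. These genes averaged under 1 RPKM in the population where they were lower, and so passed the filter only through the other population.

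Family relatives of the members, such as the further HECT ligases Wwp1 and Smurf2 and the Traf proteins, held 1 call in 15 genes tested, a fall of Traf5 (median of the list -0.02). Traf5, an adaptor of TNF receptors such as OX40 and CD27, had 10.1, 10.3 and 9.43 RPKM in GFP-hi against 16.5, 12.7 and 13.1 RPKM in GFP-lo, which is -0.46 ± 0.095 (SE) as a log2 fold change (limma, adjusted p = 0.038). It passed without GFP-lo replicate 1 but in no other fit without 1 library, where adjusted p reached 0.12. Traf1 was lower in each GFP-hi library without passing (log2 fold change -0.25, limma adjusted p = 0.057). Rnf167 and Traf4, also among the most abundant of the list, did not pass.

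The list of other tolerance-linked ligases held 1 call in 21 genes tested, Socs3, with a list median of -0.06. Socs3, a substrate receptor that targets cytokine receptors, had 27.3, 45.6 and 36.6 RPKM in GFP-hi against 63.4, 76.9 and 68.2 RPKM in GFP-lo (log2 fold change -0.93 ± 0.164 SE, limma adjusted p = 0.021). Socs3 is also a gene of the dissociation and heat shock list, of whose 20 genes tested 17 had negative fold changes, with a median of -0.30. Its call was lost without GFP-hi replicate 3 or any 1 GFP-lo library, with adjusted p up to 0.083. Among the 4 libraries with lower Hspa1a its log2 fold change was -1.03 (limma, adjusted p = 0.039). Dtx1, a ligase induced by NFAT in anergic T cells, was the most abundant of the list with 88.7, 82.2 and 80.8 RPKM in GFP-hi against 86.0, 67.8 and 66.3 RPKM in GFP-lo, and its groups overlapped (log2 fold change 0.20, limma adjusted p = 0.31). Rbck1 and Birc2, which with Socs3 followed Dtx1 in level, did not pass. Of the enzymes that load ubiquitin or remove it, 20 genes tested, none passed and 3 had an unadjusted p under 0.05 (limma, list median 0.01). Uba1, Tnfaip3 and Ube2d3 were the most abundant.

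Proteins that bind Cbl or act with it gave 2 rises in 14 genes tested and no fall, with a list median of 0.01. Ubash3b (Entrez 72828), which encodes Sts-1, a phosphatase that binds Cbl and removes phosphate from Zap70, had 8.19, 8.42 and 7.21 RPKM in GFP-hi against 6.08, 5.76 and 5.07 RPKM in GFP-lo. All GFP-hi libraries lay above all GFP-lo libraries, by 0.43 ± 0.082 (SE) as a log2 fold change (limma, adjusted p = 0.028). Its call held when GFP-hi replicate 3 or GFP-lo replicate 1 was left out and was lost without each of the other 4 libraries, with adjusted p up to 0.10. Its relative Ubash3a had 23.0, 20.7 and 23.0 RPKM in GFP-hi against 24.6, 23.8 and 22.9 RPKM in GFP-lo and did not pass (limma, adjusted p = 0.45). Ubash3a was named with its values already known. Cd6, a surface receptor that gathers adaptors and enzymes near the T cell receptor, had 161, 158 and 156 RPKM in GFP-hi against 138, 125 and 124 RPKM in GFP-lo (log2 fold change 0.30 ± 0.059 SE, limma adjusted p = 0.034). It was called without GFP-lo replicate 1 and lost without each of the other 5 libraries, with adjusted p up to 0.14. Cd5, a related receptor to which Cbl and Cbl-b can bind, was higher in each GFP-hi library and did not pass (log2 fold change 0.23, limma adjusted p = 0.071). Sh3kbp1, the adaptor CIN85, and Sla2, which brings Cbl to the receptor, were abundant and did not pass.

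Among 31 known targets of these ligases tested, 2 were higher and 1 lower, and the list median was 0.01. All 3 are proteins reported as targets of GRAIL, whose gene was not analysed here, and they did not share a direction. Arhgdia (log2 fold change -0.02, limma adjusted p = 0.89) and Cd3e (0.03, adjusted p = 0.82) of the same list did not pass. Both are named with their values already known. Calls were not counted by ligase, so nothing particular to GRAIL is read from this. Cd40lg, which encodes CD40 ligand, had 16.5, 22.7 and 14.2 RPKM in GFP-hi against 37.0, 46.8 and 35.4 RPKM in GFP-lo, which is -1.13 ± 0.166 (SE) as a log2 fold change (limma, adjusted p = 0.011). Cd81, a tetraspanin, had 1.75, 2.37 and 2.14 RPKM in GFP-hi against 0.583, 0.722 and 0.893 RPKM in GFP-lo, which is 0.83 ± 0.104 (SE) as a log2 fold change (limma, adjusted p = 0.0055). Cd83 had 1.63, 1.36 and 1.99 RPKM in GFP-hi against 0.745, 0.886 and 0.873 RPKM in GFP-lo (log2 fold change 0.53, limma adjusted p = 0.028), and the call was lost in each fit without 1 library other than that without GFP-hi replicate 2, with adjusted p up to 0.094. Cd40lg is also a CD4 T cell marker. Of 6 such markers, only Cd40lg and Izumo1r had values, which differed in opposite directions. Cd4, Foxp3, Zbtb7b and Il2ra had none. The summed level of Cd40lg and Izumo1r ranged from 17.2 to 26.2 RPKM over the GFP-hi libraries and from 36.3 to 47.8 RPKM over the GFP-lo libraries. Cd40lg made up most of this sum in every library, so the sum largely restates the difference in Cd40lg. It is no separate measure of CD4 T cells. The part of CD4 T cells in the differences of Cd40lg and Izumo1r was not tested. Of the targets of Itch, Junb was lower in each GFP-hi library without passing (542, 750 and 578 RPKM against 824, 944 and 808 RPKM, log2 fold change -0.47, limma adjusted p = 0.080). Junb also belongs to the dissociation and heat shock list. Lck and Jun, the other abundant targets, did not pass.

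In the pathway of Traf6 and Peli1, 19 genes were tested, 17 of them with negative fold changes, and 1 passed (median -0.06). An unadjusted p under 0.05 (limma) was reached by 3 of the 19, against 20.2% of all genes tested. Nothing is read from the signs, since the list was drawn up with earlier results known. Il18r1, a chain of the interleukin 18 receptor, which signals through Traf6, had 1.19, 0.629 and 0.955 RPKM in GFP-hi against 2.66, 3.90 and 4.01 RPKM in GFP-lo (log2 fold change -1.23 ± 0.149 SE, limma adjusted p = 0.0048). The intracellular parts of the pathway, among them the abundant Nfkbia and Sqstm1, did not pass.

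Of the anergy programme, 3 genes were higher and 1 lower of 18 tested (22.2%, against 3.95% of all genes), with a median of 0.02, on a list drawn up with earlier results known. Izumo1r, which encodes folate receptor 4, a marker of anergic and regulatory CD4 T cells, had 3.72, 3.47 and 2.999 RPKM in GFP-hi against 1.12, 0.938 and 0.822 RPKM in GFP-lo, which is 1.17 ± 0.091 (SE) as a log2 fold change (limma, adjusted p = 0.00087). Ndrg1, an Egr2 target that maintains anergy, had 5.39, 6.07 and 3.95 RPKM in GFP-hi against 1.91, 1.77 and 1.21 RPKM in GFP-lo, which is 1.22 ± 0.1504 (SE) as a log2 fold change (limma, adjusted p = 0.0054). Nt5e, which encodes CD73, was lower (log2 fold change -0.58, limma adjusted p = 0.018), with 0.856, 0.770 and 0.629 RPKM against 1.48, 1.94 and 1.47 RPKM, and its call was lost when GFP-hi replicate 3 or GFP-lo replicate 2 was left out (adjusted p up to 0.067). Dgka, Nr4a1 and Tob1 were the most abundant of the list and did not pass. Egr2, a transcription factor of the programme that the naming rule did not choose, had 3.17, 6.19 and 2.70 RPKM in GFP-hi against 3.18, 5.42 and 2.48 RPKM in GFP-lo, highest in replicate 2 of each population (limma, adjusted p = 0.90).

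**Figure D4:**
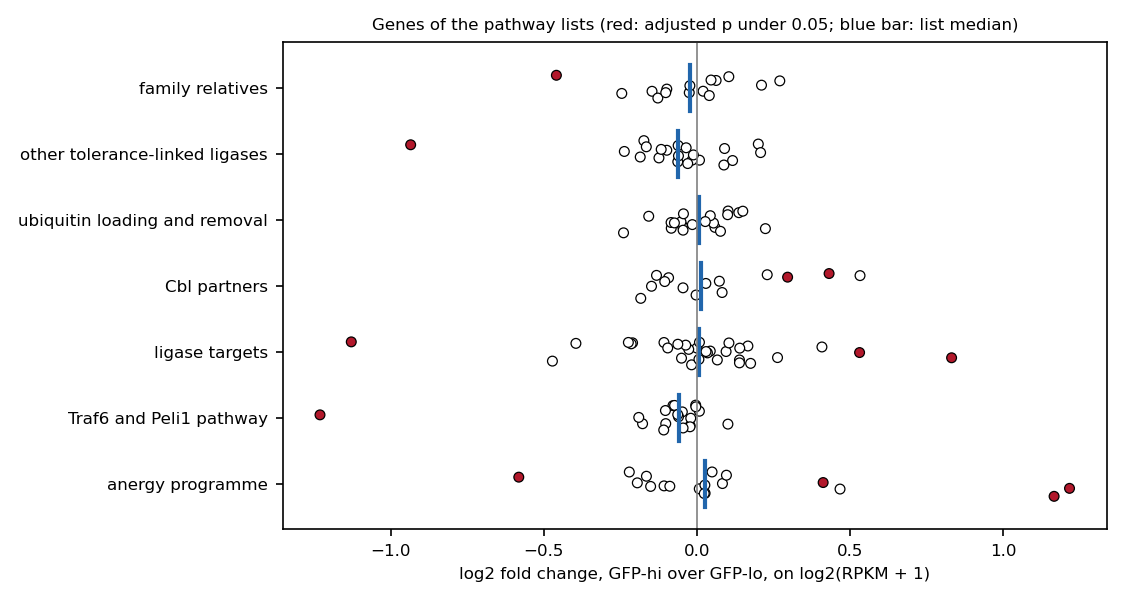
Log2 fold change of GFP-hi over GFP-lo on log2(RPKM + 1) for each tested gene of the 7 pathway lists, with called genes (adjusted p under 0.05) in red and the list medians as blue bars. The medians lie between -0.06 and 0.02, and the 12 called genes between -1.23 and 1.22.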

How the data were processed

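RNA of sorted cells had been made into cDNA with the SMART-seq v4 kit and into libraries with the Nextera XT kit, per the labels' protocols. STAR and mm10 are named in the submitters' processing notes; the read counter, the gene annotation and the rule for listing genes are not given in the sources used here. The authors deposited RPKM values in 1 column for each of 6 samples, per the file headers, and columns were matched to samples by title. All columns were used. For 15 genes whose symbol was blank or turned into a date, the symbol was looked up by Entrez ID in RefSeq.

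Depth was recovered from 727 genes for which GENCODE M21 has a single transcript. RPKM times length and library size came within 0.1 of a whole read for 92.0% to 94.3% of low values. The size had been chosen on these same values, whereas the 20.0% expected by chance holds for a size not fitted to them. The score by which the size was chosen was 16.9 to 17.5, against 3.06 to 4.03 with lengths exchanged at random among the genes. Libraries of a population differed by more than counting error, with a chi-square per gene of 13.5 to 266.

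Genes with a mean of at least 1 RPKM over the 6 samples were fitted with limma 3.58.1 in R 4.3.3 on log2(RPKM + 1), a pseudocount of 1, using eBayes with a trend and without covariates, and p-values were adjusted by Benjamini-Hochberg across the 9351 genes. This scale understates changes of low genes. The fit was tested on simulated data, with 200 genes changed in each of 5 simulations per size. It recovered 0% of the genes changed by a log2 fold change of 0.25, 70.2% at 0.5 and 95.9% at 1. All member estimates were smaller in size than 0.25, so a member that did not pass is not shown to be unchanged. The members, lists and alternatives were chosen with earlier results of these data known, so no test over a list was made. The text names all members, the list genes with an adjusted p under 0.05, up to 3 further genes of highest mean RPKM per pathway list, and the 5 genes most like Cbl; a few genes that this rule chose are not reported here, though counts include them. Plots were made in matplotlib 3.10.9 (Python 3.11.15).

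Alternatives changed the pseudocount, the filter, the scaling, the variance model, the weights and the libraries included. A further 2, chosen after the data had been seen, kept the 4 libraries with lower Hspa1a and Hspa1b or used the mean of the dissociation and heat shock list as a covariate. No replicate block was fitted, since replicate numbers follow the order of the records.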

Additional observations from a re-analysis of the deposited data

How the results depend on the processing

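Under 18 alternatives (16 planned, 2 chosen after the data had been seen), no member passed except Nedd4 and Ndfip1 with array quality weights (2 members) and Ndfip1 with the heat shock covariate (1 member). Nedd4, Ndfip1, Ndfip2, Nedd4l, Peli1 and Traf6 kept their direction in every fit in which they were tested, a mean RPKM of at least 5 leaving out Ndfip2 and Nedd4l. Cbl, with array quality weights, had a log2 fold change of 0.047, and Itch 0.018. Among the 4 libraries with lower Hspa1a and Hspa1b they had 0.11 and 0.023, and with the heat shock covariate Cblb had -0.0067. Leaving out 1 library gave a log2 fold change from -0.13 to 0.12 for Cbl, from -0.075 to 0.17 for Cblb and from -0.066 to 0.046 for Itch. Called genes, 369, numbered 202 at a mean RPKM of at least 5, 1282 with array quality weights, 101 among the 4 libraries, 859 with the covariate and 133 to 315 without 1 library. Pathway genes called, 12 in the test as reported, numbered 5, 29, 5 and 19 under the same fits in that order. Without 1 library they numbered 5 to 10. Of the 12 themselves, 5, 12, 3 and 12 passed under those fits, and 5 to 9 without 1 library. The share of called genes that were higher, 62.3%, was 51.3% when libraries were scaled by TMM (196 higher, 186 lower). The cause of these changes was not tested; the filter and the smaller sets test fewer genes or fewer libraries. No paired analysis was made, since the labels give no number that ties a GFP-hi to a GFP-lo sample. For some genes libraries of the same replicate number looked alike. Nr4a1, for example, had 56.6, 90.9 and 37.0 RPKM in GFP-hi against 63.1, 84.9 and 33.8 RPKM in GFP-lo. Whether such libraries are paired was not tested, and any spread that they share stays in the test as reported. With 3 libraries a population, the test as reported passed no gene whose fold change was as small as those of Ndfip1 and Nedd4, and with array quality weights both passed.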
